A study of Mus musculus with 6 samples.

Results

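The genes described here were 5 mouse genes of secreted effector proteins, *Retnla* and *Retnlg* of the resistin-like molecules (RELMs) and *Chil3*, *Chil4* and *Chil1* of the chitinase-like proteins. They were chosen by name, and every probe annotated to them was kept apart. Gene symbols were at hand only for probes of the authors' normalized table, which held 19293 of the 45281 probes on the array. This gave 7 probes, all of them among the 16071 tested. Probes of these genes outside that table could not be looked for. The arrays measured bone marrow-derived dendritic cells (BMDCs) of 3 C57BL/6 male mice, whose ages the labels do not give. All cells were grown for 10 days in 20 ng/ml GM-CSF, the growth factor that drives marrow cells towards dendritic cells (DCs), and were then moved to 5 ng/ml GM-CSF for 6 h, either without further cytokine (control, 3 arrays) or with 20 ng/ml IL-4 (3 arrays). The comparison asked how the effector genes responded to IL-4 in BMDCs. No cell sort is described for these arrays, so a culture could hold other cells that GM-CSF supports, and in such bulk RNA fewer cells of a type and less RNA per cell cannot be told apart.

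RELMs are small secreted proteins related to the hormone resistin, and chitinase-like proteins bind sugars while lacking the chitin-cleaving activity of the true chitinases. RELMα (from *Retnla*) and Ym1 and Ym2 (from *Chil3* and *Chil4*) are classical markers of mouse macrophages activated by IL-4 and IL-13, cytokines that signal through the IL-4 receptor and the transcription factor STAT6. RELMγ (from *Retnlg*) is known from bone marrow and neutrophils, and *Chil1* encodes BRP-39, the mouse counterpart of human YKL-40.

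The stretch of DNA before the start of each gene is shown because STAT6 and C/EBP factors are known to act on the *Retnla* promoter and because the genes lie in pairs on chromosomes 16 and 3. All 5 genes matched RefSeq (GRCm38.p6), and 4 are printed, each as the 250 bases before the start, from 5′ to 3′ on the gene's strand. Capitals mark matches to STAT or C/EBP letters:
Retnla chr16:48842359-48842608 (+): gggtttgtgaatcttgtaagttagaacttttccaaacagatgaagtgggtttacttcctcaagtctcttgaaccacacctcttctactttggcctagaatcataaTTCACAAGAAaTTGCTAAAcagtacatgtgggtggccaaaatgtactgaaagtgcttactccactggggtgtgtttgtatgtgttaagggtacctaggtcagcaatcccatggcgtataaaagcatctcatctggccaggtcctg
Retnlg chr16:48872358-48872607 (+): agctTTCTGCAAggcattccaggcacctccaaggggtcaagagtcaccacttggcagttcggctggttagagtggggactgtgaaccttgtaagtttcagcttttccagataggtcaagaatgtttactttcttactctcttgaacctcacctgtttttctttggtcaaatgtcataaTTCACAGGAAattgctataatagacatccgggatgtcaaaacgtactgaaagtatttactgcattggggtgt
Chil3 chr3:106167565-106167814 (-): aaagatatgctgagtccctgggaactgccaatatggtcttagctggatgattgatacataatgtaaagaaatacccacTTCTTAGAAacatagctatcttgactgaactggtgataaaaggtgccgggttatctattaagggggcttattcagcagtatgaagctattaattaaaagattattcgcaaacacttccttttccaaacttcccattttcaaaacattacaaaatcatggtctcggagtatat
Chil4 chr3:106219480-106219729 (-): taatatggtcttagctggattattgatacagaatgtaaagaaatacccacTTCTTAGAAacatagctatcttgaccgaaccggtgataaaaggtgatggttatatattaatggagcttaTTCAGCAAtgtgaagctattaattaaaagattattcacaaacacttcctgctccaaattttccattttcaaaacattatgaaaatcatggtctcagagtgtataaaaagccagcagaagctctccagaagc

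Windows of 300 bases, which also held 50 bases after the start, were searched on both strands for TTCNNNNGAA, the form preferred by STAT6, TTCNNNGAA, the general STAT form, and TTGCNNAA, a loose C/EBP form that reads TTNNGCAA on the other strand. These letters were found in 6.94%, 8.29% and 10.8% of the 32817 distinct RefSeq windows, so a match by itself is common. The *Retnla* window held TTCACAAGAA at -145 to -136 from the start and TTGCTAAA at -134 to -127. A STAT6 match and a C/EBP match were both present, at any distance from each other, in 0.841% of all windows. *Retnlg* also held both, TTCACAGGAA at -72 to -63 and TTCTGCAA at -246 to -239, but far from each other. *Chil3* and *Chil4* held the same STAT letters, TTCTTAGAA, at -172 to -164 and at -200 to -192, and *Chil4* alone of this pair had a C/EBP match, TTCAGCAA at -131 to -124. No match was found in the *Chil1* window. Aligned base to base, the *Retnla* and *Retnlg* windows were alike at 178 of 225 paired bases (78.1% with gaps counted), and the *Chil3* and *Chil4* windows at 251 of 271 (91.9%).

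Signals below are background-corrected, quantile-normalized log2 bead signals. A level can be compared between arrays for a given probe but not between probes. Where groups are said not to overlap, the share of all tested probes with such a gap was not counted. Such statements describe single probes. A probe was called changed when its adjusted p in limma was under 0.05 and its log2 fold change was over 1 in size (2-fold on the linear scale). The arrays of each condition are numbered 1 to 3, and where blocking on that number changed a call its value is given too. Of the 7 probes, 2 were called higher without the block (*Retnla* and a *Chil3* probe), where 0.112% of all tested probes were, and 5 were called higher with it (*Retnla*, all 3 *Chil3* probes and *Chil4*), where 0.672% were. None of the 7 was called lower in either fit. These 5 were also the probes with an unadjusted limma p under 0.05 in the fit without the block, where 1164 of the 16071 tested probes had one.

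The arrays with replicate number 2 stood apart. Of the tested probes, 10.6% were higher and 10.9% lower on both replicate 2 arrays than on any of the other 4. For the labelled cell type, 12 of 15 conventional DC marker genes were among the tested probes, and none was called in either fit. Their summed linear level was 50034 to 54549 in controls and 49704 to 53345 with IL-4. This sum is weighted to the genes with the highest signals, *Cd74*, *H2-Ab1*, *H2-Eb1* and *H2-Aa*. *Batf3* (log2 fold change 0.91) and *Irf8* (0.49) rose in each pair of same-numbered arrays. *H2-Ab1* (-0.11) and *Ciita* (-0.20) fell in each, and the other measured markers did not keep a sign. *Flt3*, *Xcr1* and *Clec9a* of that list were not among the genes measured. Of 16 macrophage and monocyte markers, 12 were measured and none was called. Of these 12, 9 were lower on both replicate 2 arrays than on the other 4, and 2, *Adgre1* and *Fcgr4*, were higher on both. The median log2 fold change of the 12 was -0.23. The markers did not move together. *C1qa*, *C1qb*, *C1qc*, *Cd14*, *Fcgr1* and *Fcgr4* fell with IL-4 in each pair of same-numbered arrays, and *Csf1r*, *Mertk* and *Trem2* rose in each. *Adgre1*, *Apoe* and *Ccr2* did not keep a sign. The summed linear level of the 12, weighted to the genes with high signals, was 10447, 7548 and 11247 in control replicates 1 to 3. It was 9946, 6951 and 9123 in IL-4 replicates 1 to 3, lower with IL-4 in each pair. The part of these cells in the changes of *Retnla*, *Chil3* and *Chil4* was not tested. Array medians of the bead signal before normalization were 83.8 to 118 in controls and 97.0 to 121 with IL-4.

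*Retnla*, which encodes RELMα, was higher with IL-4 on every array and was called in both fits. Its log2 level (probe ILMN_1226472) was 10.42, 10.86 and 10.48 in control replicates 1 to 3 and 12.42, 12.39 and 12.38 in IL-4 replicates 1 to 3. The groups did not overlap, and the IL-4 arrays lay closer together (12.39 ± 0.019, SD, n = 3) than the controls (10.58 ± 0.24, SD, n = 3). The log2 fold change was 1.81 (SE 0.17, 95% interval 1.42 to 2.20), or 3.51-fold, with a limma adjusted p of 0.00676. On the IL-4 arrays 222 to 228 other probes were brighter, up to a normalized level of 14.22. Before normalization the bead signal of *Retnla* was 777, 1886 and 1834 in controls and 5731, 4448 and 7687 with IL-4, so the close spacing was seen on the normalized scale alone.

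**Figure D1:**
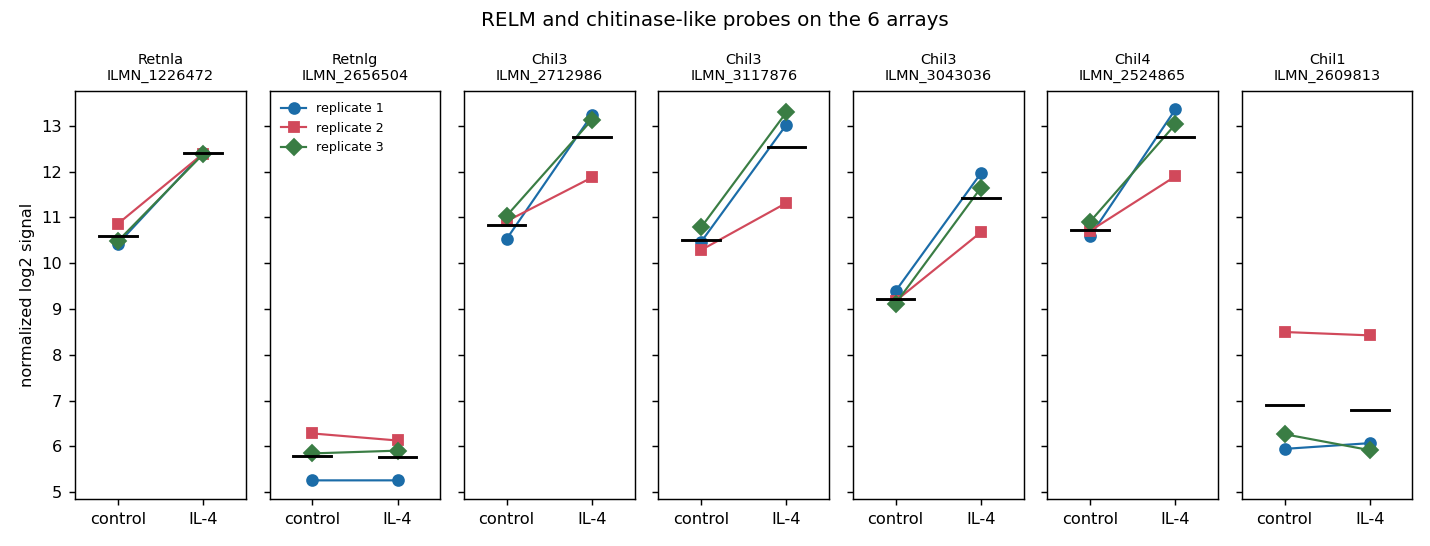
Normalized log2 signal (vertical axis) of each RELM and chitinase-like probe in control and IL-4 BMDCs. Lines join arrays with the same replicate number and black bars mark group means. IL-4 arrays lie above all controls for *Retnla*, the 3 *Chil3* probes and *Chil4*, while *Retnlg* and *Chil1* follow the replicate number.

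*Chil3*, which encodes Ym1, was measured by 3 probes, and on each of them all IL-4 arrays were above all control arrays. Probe ILMN_3043036 gave 9.39, 9.17 and 9.12 in controls and 11.96, 10.67 and 11.64 with IL-4, in replicate order. It had the widest gap between the groups of the *Chil3* probes and was the *Chil3* probe called without the block, with a log2 fold change of 2.20 (SE 0.30, 95% interval 1.53 to 2.87; limma adjusted p = 0.0408).

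The other *Chil3* probes moved by a similar size with a wider spread. Probe ILMN_2712986 gave 10.53, 10.92 and 11.03 in controls and 13.24, 11.87 and 13.13 with IL-4. Its log2 fold change of 1.92 (SE 0.34, 95% interval 1.16 to 2.69) had a limma adjusted p of 0.115 without the block and 0.00182 with it. Probe ILMN_3117876 gave 10.47, 10.29 and 10.78 in controls and 13.02, 11.31 and 13.29 with IL-4. Its log2 fold change was 2.03 (SE 0.44, 95% interval 1.03 to 3.03), with a limma adjusted p of 0.179 without the block and 0.00124 with it. On all 3 probes the IL-4 array with the lowest level was replicate 2. For ILMN_3117876 the groups overlapped before normalization, the highest control signal being 2274 and the lowest IL-4 signal 2093.

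*Chil4*, which encodes Ym2 and lies beside *Chil3* on chromosome 3, followed the same course on its probe, ILMN_2524865. Its level was 10.59, 10.70 and 10.90 in controls and 13.36, 11.90 and 13.03 with IL-4. Again the groups did not overlap and replicate 2 was the lowest IL-4 array. The log2 fold change was 2.03 (SE 0.33, 95% interval 1.28 to 2.78), with a limma adjusted p of 0.103 without the block and 8.84e-04 with it. In the authors' normalized table the blocked fit called neither *Chil4* (log2 fold change 2.12, adjusted p = 0.163) nor *Chil3* probes ILMN_2712986 (2.01, 0.180) and ILMN_3117876 (2.12, 0.174). Over the 6 arrays the *Chil4* probe and *Chil3* probe ILMN_2712986 had a correlation of 0.995, and of 0.976 after the group means were taken out, a description over 6 arrays that share the same mice and treatment. Probe sequences were not used here, so how far a probe of either gene also reads the other was not tested.

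By the order of rise among all tested probes, *Chil3* probes stood at ranks 6, 11 and 16, *Chil4* at 12 and *Retnla* at 20. This order was not stable. With IL-4 replicate 1 left out, *Retnla* had a log2 fold change of 1.80, against 1.67 and 1.79 on *Chil3* probes ILMN_2712986 and ILMN_3117876 and 1.73 for *Chil4*. Without IL-4 replicate 3 it was 1.82, against 1.73 and 1.66 on these *Chil3* probes and 1.89 for *Chil4*. *Chil3* probe ILMN_3043036 stayed above *Retnla* in both settings, at 1.93 without IL-4 replicate 1 and 2.09 without IL-4 replicate 3.

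**Figure D2:**
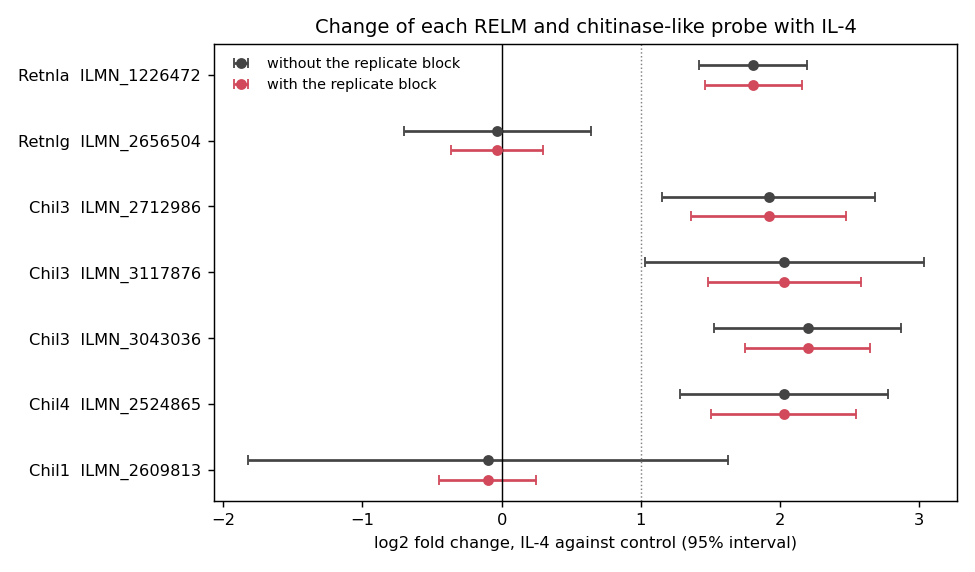
Log2 fold change of each probe, IL-4 against control (horizontal axis), with its 95% interval from limma without and with the replicate block. The intervals of *Retnla*, *Chil3* and *Chil4* lie above 0 in both fits; that of *Chil1* narrows from -1.83 to 1.63 without the block to -0.45 to 0.25 with it.

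Read by replicate number, IL-4 minus control for *Retnla* was 2.00, 1.53 and 1.90 in pairs 1, 2 and 3. For *Chil3* the differences were 2.71, 0.96 and 2.10 on ILMN_2712986, 2.56, 1.03 and 2.51 on ILMN_3117876, and 2.57, 1.50 and 2.53 on ILMN_3043036. For *Chil4* they were 2.77, 1.19 and 2.12. Pair 2 was the smallest difference on each of these 5 probes, as it was for 74 (68.5%) of the 108 probes called higher with the block. On the linear scale pair 2 rose 2.89-fold for *Retnla* and 2.28-fold for *Chil4*, against 6.81-fold for *Chil4* in pair 1.

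The sizes of response were compared among the brightest probes of the 3 genes by exact two-sided permutation tests, 3 comparisons in all. The tests were unpaired and did not use the replicate numbers, and with 3 arrays against 3 they cannot give a p below 0.1. *Chil3* minus *Retnla* was 0.11 on the log2 scale, with 0.71, -0.58 and 0.20 in pairs 1, 2 and 3 (exact p = 0.8). *Chil4* minus *Retnla* was 0.22, with 0.77, -0.34 and 0.22 (exact p = 0.7). On these probes *Retnla* responded more than either chitinase-like gene in pair 2, and less in pairs 1 and 3. The other *Chil3* probes differed in size. *Chil3* minus *Retnla* was 0.22 on ILMN_3117876 (0.56, -0.50 and 0.61 in pairs 1, 2 and 3). On ILMN_3043036 it was 0.39 (0.58, -0.030 and 0.63), so there the responses in pair 2 were close. *Chil4* minus *Chil3* (ILMN_2712986) was 0.11, with 0.058, 0.24 and 0.027 (exact p = 0.4). The direction of this last difference depended on the *Chil3* probe, being -0.0056 against ILMN_3117876 (0.21, 0.16 and -0.39) and -0.17 against ILMN_3043036 (0.20, -0.31 and -0.40). All 3 adjusted p-values were 0.8, and the tests do not show that the genes responded alike.

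*Retnlg*, the neighbour of *Retnla* on chromosome 16, was not called in either fit. Its level (ILMN_2656504) was 5.26, 6.28 and 5.85 in controls and 5.26, 6.13 and 5.91 with IL-4. The groups overlapped entirely, and arrays with the same replicate number lay within 0.15 of each other. The log2 fold change was -0.031, with a 95% interval of -0.70 to 0.64 without the block (limma adjusted p = 0.994) and of -0.36 to 0.30 with it (adjusted p = 0.961). Both intervals end below the log2 fold change of 1 used for a call. The offset of 16 shrinks changes at signals this low, so a 2-fold change in RNA is not excluded. The probe was detected on all 6 arrays, at bead signals of 94.0 to 178.

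*Chil1* was also not called, and its level followed the replicate number more widely. Probe ILMN_2609813 gave 5.94, 8.50 and 6.26 in controls and 6.07, 8.42 and 5.92 with IL-4, so both replicate 2 arrays were far above the other 4, which lay between 5.92 and 6.26. The log2 fold change was -0.099 (SE 0.77, 95% interval -1.83 to 1.63; limma adjusted p = 0.993) without the block. Without the block the interval reached past a 2-fold change in either direction; with it the interval was -0.45 to 0.25 (adjusted p = 0.856). The differences in pairs 1, 2 and 3 were 0.13, -0.073 and -0.35, which do not share a sign.

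On the normalized scale *Retnlg* and *Chil1* were both higher on both replicate 2 arrays than on any of the other 4. Before normalization this held for *Chil1* but not for *Retnlg*, whose bead signal was 164 and 133 on the replicate 2 arrays and 162 and 178 on the replicate 3 arrays. Of 17 measured neutrophil genes, 12 had higher normalized levels on both replicate 2 arrays than on the other 4, against 10.6% of all tested probes. Examples, chosen after their values were seen, were *Ngp*, a neutrophil granule protein, at 9.20, 11.67 and 7.96 in controls and 9.26, 11.64 and 8.11 with IL-4, and *S100a8*, a calprotectin subunit, at 12.47, 13.74 and 12.39 in controls and 12.03, 13.83 and 12.09 with IL-4. The summed linear level of the list was 11305, 37693 and 9584 in control replicates 1 to 3 and 9298, 37881 and 8339 in IL-4 replicates 1 to 3. The sum was thus higher on replicate 2 in both conditions. *Mpo*, *Ly6g* and *Stfa3* of the list of 20 were not among the genes measured, and *Mmp8* and *Csf3r* were lower on both replicate 2 arrays. Of 4 measured mast cell and basophil genes, 3 (*Cpa3*, *Gata2* and *Prss34*) were also higher on both, while *Kit* was lower on both. The list sum was 4441 and 4045 on the replicate 2 arrays and 272 to 703 elsewhere. On the replicate 2 arrays most of it came from *Cpa3*, at 11.78 in the control and 11.65 with IL-4. The part of these cells in the levels of *Retnlg* and *Chil1* was not tested.

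**Figure D3:**
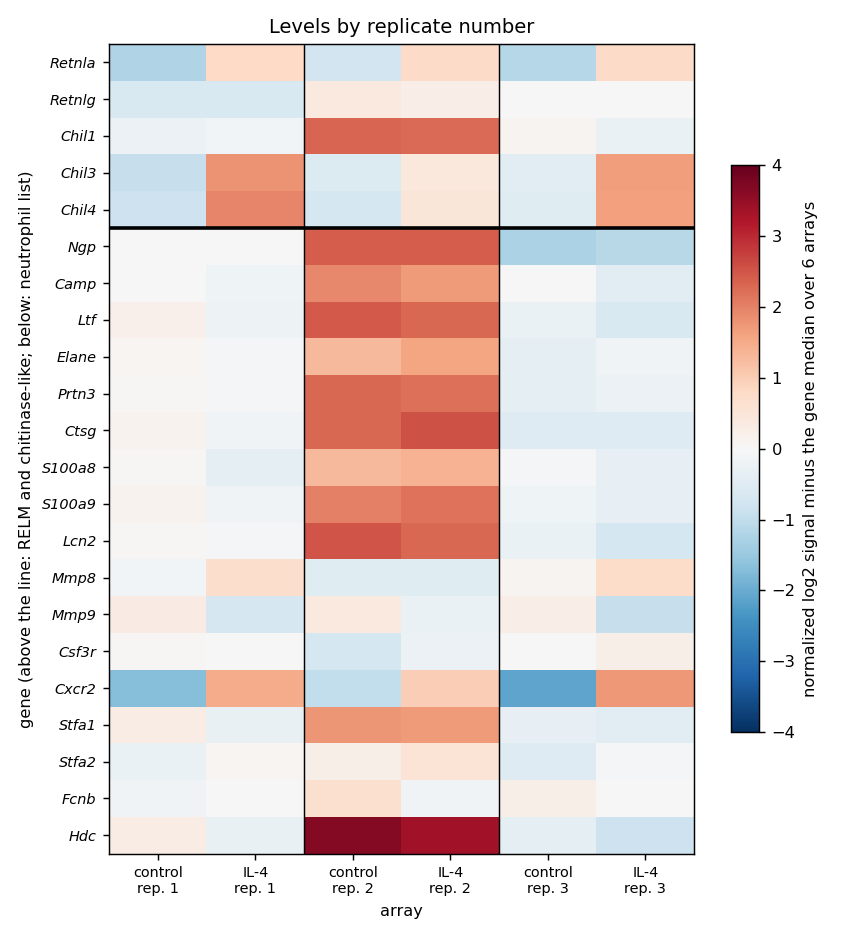
Normalized log2 signal of each gene minus its median over the 6 arrays (colour), for the RELM and chitinase-like probes above the line and the neutrophil list below it, with arrays in columns. *Chil1* and most neutrophil genes are high on both replicate 2 arrays, while *Retnla*, *Chil3* and *Chil4* differ between control and IL-4.

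With IL-4, the median log2 fold change of the neutrophil list was -0.092, beside -0.0029 over all tested probes. In both fits 1 of its 17 measured genes was called. Of all tested probes, 0.112% were called higher without the block and 0.672% with it. The gene called was *Cxcr2*, a chemokine receptor, with a log2 fold change of 3.00 (limma adjusted p = 0.00939), chosen for mention after its value was seen. It was detected on 2 of the 3 control arrays, and its log2 fold change in the authors' normalized table was 1.78. No *Retnla*, *Chil3* or *Chil4* probe had its highest level on a replicate 2 array.

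Beyond these genes the families gave few measurements. Of 4 RELM genes, *Retn* and *Retnlb* were not among the genes measured. Of 10 chitinase and chitinase-like genes, 4 were measured, the only other being *Chid1*, a chitinase domain protein. *Chid1* was at 6.48, 6.78 and 6.92 in controls and 6.66, 7.09 and 6.37 with IL-4, with a log2 fold change of -0.018 (limma adjusted p = 0.995). Its groups overlapped and its pairs did not share a sign.

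The 18 measured genes of 19 listed for the IL-4 receptor, its kinases, STAT6, C/EBP and other factors upstream showed a median change of 0.11 on the log2 scale; none was called without the block. With it 1 was called, *Irf4*, a transcription factor known to act in alternative activation, where 0.672% of all tested probes were called higher. *Irf4* was at 9.23, 9.26 and 9.21 in controls and 10.69, 9.77 and 10.46 with IL-4, a log2 fold change of 1.08 (limma adjusted p = 0.175 without the block and 0.0101 with it). Its groups did not overlap, and as for *Chil3* and *Chil4* pair 2 was the smallest, with differences of 1.46, 0.52 and 1.25.

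Of 26 other genes of alternative activation, a list chosen with earlier results of these data known, 23 were measured. Their median log2 fold change was 0.87, beside -0.0029 over all tested probes. Of the 23, 1 was called higher without the block, the eosinophil chemokine gene *Ccl24*, where 0.112% of all tested probes were. With the block 10 were called higher, where 0.672% of all tested probes were. Pair 2 was the smallest difference for 8 of these 10, and for 68.5% of all probes called higher with the block. *Ccl24* had a log2 fold change of 5.34 with pair differences of 5.70, 4.64 and 5.67. Its control levels were low (5.21, 5.11 and 4.68), and it was detected on 2 of the 3 control arrays. In the authors' normalized table its log2 fold change was 3.95. The other named genes were called only with the block. They were *Flt1*, a VEGF receptor (3.08), *Arg1*, arginase (2.14), and *Rnase2a*, an eosinophil-type ribonuclease (2.11). *Slc7a2*, a cationic amino acid transporter (1.78), and *Aldh1a2*, which makes retinoic acid (1.61), were the others. *Flt1* was detected on 1 of the 3 control arrays, and its log2 fold change in the authors' normalized table was 1.77. *Arg1* was at 11.65, 6.98 and 11.48 in controls and 13.21, 10.22 and 13.08 with IL-4, lower on both replicate 2 arrays, as were 9 of the 23 genes.

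Genes whose pattern over the 6 arrays was most like that of each member were sought among 1431 genes with a range over 1 log2 unit. For *Retnla* these were *Entpd4* (Pearson r = 0.993), *Mad1l1* (0.992) and *Casp6* (0.989). For *Chil3* they were *Cpox* (0.999), *Il31ra* (0.998) and *Syn1* (0.986), and for *Chil4* they were *Cpox* (0.997), *Irf4* (0.993) and *Il31ra* (0.993). *Cpox*, an enzyme of haem synthesis, was at 4.49, 4.62 and 4.67 in controls and 5.61, 5.01 and 5.54 with IL-4, again with replicate 2 the lowest IL-4 array. *Casp6*, a caspase, was at 8.08, 8.88 and 8.54 in controls and 10.26, 10.24 and 10.24 with IL-4, sharing with *Retnla* the closely spaced IL-4 arrays. For *Retnlg* they were *Slc44a2* (0.968), *Depdc1b* (0.958) and *Rap1gap2* (0.951), and for *Chil1* they were *Chst13* (0.996), *Cyp11a1* (0.994) and *Adgrg3* (0.992). *Cyp11a1*, an enzyme of steroid synthesis, was at 7.35 and 7.22 on the replicate 2 arrays and at 4.79 to 4.86 on the other 4. These correlations are descriptions over 6 arrays that share treatment and replicate number.

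The sizes of change held under other settings more closely than the calls did. Over 18 alternatives, the log2 fold change of *Retnla* ran from 1.72 to 1.95, and those of the *Chil3* and *Chil4* probes from 1.53 to 2.65. The call of *Retnla* was lost in 7 of the 18. These were the authors' normalized table (limma adjusted p = 0.0527, and 0.109 with the block), no detection filter (0.0581), and leaving out control replicate 1 (0.0568), IL-4 replicate 1 (0.0863), replicate 1 (0.614) or replicate 3 (0.194). The call of *Chil3* probe ILMN_3043036 was lost in 12 of the 18, among them each left-out array or replicate number other than IL-4 replicate 2 (adjusted p = 0.00315) and replicate 2 (0.00719). Without IL-4 replicate 2, 5 of the 7 probes were called.

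**Figure D4:**
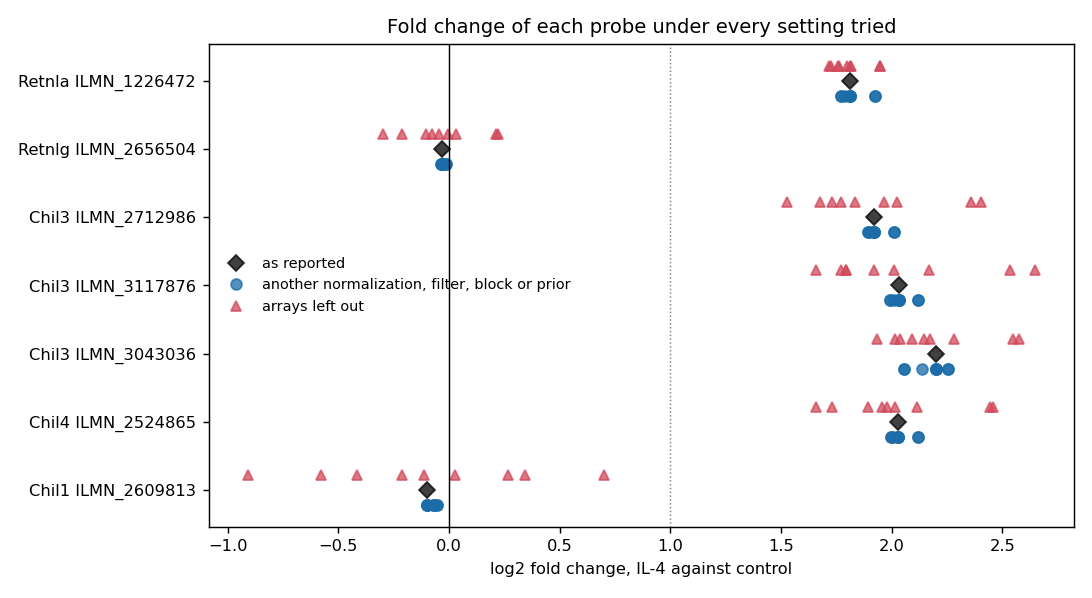
Log2 fold change of each probe (horizontal axis) under every setting tried, with settings that leave out arrays as triangles and a dotted line at the 2-fold threshold. *Retnla* stays between 1.72 and 1.95, *Chil3* and *Chil4* between 1.53 and 2.65, and *Retnlg* and *Chil1* fall on both sides of 0.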

How the data were processed

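RNA of 3 control and 3 IL-4 BMDC cultures was hybridized to Illumina MouseWG-6 BeadChip arrays, 1 array per sample. The authors deposited, for 45281 probes, mean bead signal intensities without background correction and a detection p-value per probe and array. The authors also deposited a log2 table of 19293 probes, transformed and normalized in lumi and tested in limma (versions not given in the sources used here).

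Background correction, with negative controls inferred from the detection p-values, and quantile normalization were done by neqc (limma 3.58.1 in R 4.3.3) with an offset of 16. A probe entered the fit when its detection p was under 0.05 on 3 or more arrays. Probes were fitted with lmFit and eBayes, two-sided, with Benjamini-Hochberg adjustment over all 16071 tested probes. The fit without the block and the rule for a call were tested on simulated log2 values, the other steps were not. Genes were named from the platform annotation (16243 probes of the authors' table had 1 symbol, 8 several and 3042 none). Probes outside the authors' table were not named. A gene counted as not measured when no tested probe carried its symbol, so the array may still hold a probe for it. In lists the probe with the highest mean signal stood for a gene. Figures were drawn with matplotlib 3.10.9, and sequences were aligned with Biopython 1.88 (Python 3.11.15).

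The labels give 3 mice and numbered arrays, but do not state that a number is a mouse. Deviations from the group means correlated at 0.292, 0.549 and 0.624 for same-numbered arrays and at -0.549 to 0.0959 for the rest, so the numbers were taken to pair the samples. If the arrays of a group are not from separate mice, p-values measure only the spread between these arrays, and their number limits the precision. No batch was named in the files.

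The members and lists were chosen with earlier results of these data known. Named besides the members were the measured genes of both families, up to 6 called genes of the upstream and alternative activation lists with the largest change, and for likeness the 3 genes with the highest Pearson correlation.

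Alternatives were an offset of 50, no background correction, the authors' table, no detection filter, a detection p under 0.01, the replicate block, a prior variance following the mean signal, and leaving out each array or replicate number.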

Additional observations from a re-analysis of the deposited data

How the results depend on the processing

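As reported, 18 tested probes and 2 of the 7 RELM and chitinase-like probes were called by limma. The number of all probes called was 7 without background correction, 1 without a detection filter (45281 probes tested) and 0 in the authors' normalized table, where 1330 had an unadjusted p under 0.05. The number of RELM and chitinase-like probes called was 1 with an offset of 50 or without background correction, and 0 without a detection filter or in the authors' table. With the replicate block, which takes the numbers as pairing the samples, 136 probes and 5 of the 7 were called, with 40 and 5 when background correction was also left out and 0 and 0 in the authors' table (2154 at an unadjusted p under 0.05). Leaving out an array or a replicate number gave 1 to 67 probes and 0 to 5 of the 7. The most were without IL-4 replicate 2 (67 and 5) or replicate 2 (64 and 5), and the fewest, 1 and 0, without control replicate 1, IL-4 replicate 1, replicate 1 or replicate 3. The same number of RELM and chitinase-like probes, 5, had an unadjusted p under 0.05 under every alternative. Among all tested probes that number ran from 376 without replicate 1 to 2449 without a detection filter. A detection p under 0.01 and a prior variance following the mean signal left 2 called. No *Retnla*, *Chil3* or *Chil4* probe changed direction. *Retnlg* and *Chil1*, not called under any alternative, changed sign when arrays were left out, with log2 fold changes of -0.30 to 0.22 and -0.91 to 0.70. The block changed no member's call but those of *Chil3* and *Chil4*. The causes were not tested.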

Other observations

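The genes that flank the RELM and chitinase-like genes gave little to compare. Of the 3 protein-coding genes on each side of each member in RefSeq, 22 different genes in all, 7 were measured, and 3 of these are not themselves members. *Dennd2d* and *Cept1*, beside *Chil4* on chromosome 3, had log2 fold changes of -0.029 and -0.17 (limma adjusted p = 0.992 and 0.966), and *Myog*, near *Chil1* on chromosome 1, had -0.26 (adjusted p = 0.917). None of the 3 was called with or without the block. *Retnla* and *Retnlg* are neighbours with no protein-coding gene between them in that table, and their log2 fold changes were 1.81 and -0.031.

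Over the 6 arrays, with group means taken out, the correlation of *Retnla* was 0.16 with *Chil3* probe ILMN_2712986 and 0.030 with *Chil4*. It was 0.69 with *Chil1* and 0.62 with *Retnlg*. The normalized *Retnla* level had an SD of 0.019 on the IL-4 arrays and 0.24 on the controls, so these correlations rest mainly on the controls. These are descriptions over 6 arrays that share replicate numbers.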
